A study of Mus musculus with 6 samples.

Results

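The CDK inhibitors and D-type cyclins are 10 genes that act on the same step of the cell cycle, and they were followed here in mouse embryonic fibroblasts (MEF) that had passed through narrow pores. The members were fixed by name as the 3 CIP/KIP inhibitors (Cdkn1a, Cdkn1b and Cdkn1c), the 4 INK4 inhibitors (Cdkn2a, Cdkn2b, Cdkn2c and Cdkn2d) and the 3 D-type cyclins (Ccnd1, Ccnd2 and Ccnd3), and each matched 1 of the 55335 gene rows of the count table. Wild-type MEFs, an adherent connective tissue cell grown in medium with serum, were seeded on a transwell membrane with 3 μm pores, and the cells that had reached the other side after 15 h were collected (Confine, labelled Confinement). Parental cells of the same line formed the control (Ctrl, labelled Control), and the sources do not say that these cells had been kept on a membrane. The paper's transwell protocol, written for wider pores, placed cells in medium lacking serum above medium with serum. Whether the 3 μm assay did the same is not stated. Passage through the pores, culture on the membrane and any difference in serum therefore cannot be told apart. Of the 6 deposited columns, Confine replicates 1 and 2 held the same count in every gene and were counted as 1 library, named Confine replicate 2 below. The comparison therefore set 2 Confine libraries against 3 Ctrl libraries. Nothing in the labels says that libraries came from separate cultures, so the p-values measure only the spread between these libraries, which may be technical.

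D-type cyclins bind CDK4 and CDK6, and the active kinases phosphorylate the retinoblastoma protein, which releases E2F factors and commits a cell to DNA synthesis. INK4 proteins bind CDK4 and CDK6 directly and keep them from D cyclins. CIP/KIP proteins inhibit the cyclin E and cyclin A complexes of CDK2, and they also bind cyclin D complexes. In cultured MEFs, D cyclin transcripts depend on growth factors and adhesion, Cdkn1a is the classic p53 target, and Cdkn2a is known for its rise during prolonged culture.

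Total counts ran from 22287210 to 32537550 per library, and 0.689% to 0.806% of them fell on mitochondrial genes. Values in CPM, the counts scaled to a common library total, were compared on the log2 scale over the 15881 genes tested, and correlated at 0.977 to 0.985 within Ctrl, at 0.982 within Confine and at 0.937 to 0.943 between groups, across genes, which are not independent replicates. Fibroblast transcripts such as Col1a1, Col1a2 and Vim were abundant, with summed levels of 10 markers of 8745 to 9602 CPM in Ctrl and 15732 to 16509 in Confine, whereas Thy1 and Dcn, also in this list, were at or near 0. The 8 epithelial markers summed to at most 0.675 CPM and the 6 endothelial markers to at most 0.718 CPM in any library. The 11 leukocyte markers summed to 8.21 to 8.60 CPM in Ctrl and 19.2 to 26.4 CPM in Confine. Of the 4 tested, Cd68 (log2 fold change 2.67, edgeR adjusted p = 3.94e-07) and Csf1r (1.45, 0.0367) rose, and Lyz2 fell by 2.64 (3.53e-05). Lyz2 had the highest mean in Ctrl, 4.26 ± 0.864 CPM (SD, n = 3), and Cd68 in Confine, 19.97 ± 4.78 CPM (SD, n = 2). The defining markers Adgre1, Cd3e and Tyrobp had 0 counts in every library and Ptprc had at most a trace. The part of these transcripts in the results below was not tested.

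The stretches in front of the 3 inhibitor genes that rose in Confine are shown because genes known to act on them are described further below. They come from the RefSeq promoter table (GRCm38.p6), which matched 7 of the 10 members and held no entry for Cdkn1c, Ccnd1 and Ccnd2. They run 5′ to 3′ on the gene's strand up to the annotated start, without bases of the gene's own annotated exons. The proximal Cdkn1a stretch lies in an intron of the distal transcripts and under an exon of AC167363.2, annotated on the opposite strand. Capitals mark matches on either strand to the p53 decamer motif, to TTTNNCGC (E2F) or to GGGCGG (GC box), which did not overlap each other.
Cdkn1a, distal start, chr17:29090729-29090975, plus strand: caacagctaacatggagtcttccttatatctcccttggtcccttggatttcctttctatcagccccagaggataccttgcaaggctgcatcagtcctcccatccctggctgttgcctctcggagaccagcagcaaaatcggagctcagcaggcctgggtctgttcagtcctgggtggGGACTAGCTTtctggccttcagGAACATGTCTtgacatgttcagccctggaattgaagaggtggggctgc
Cdkn1a, proximal start, chr17:29093519-29093768, plus strand: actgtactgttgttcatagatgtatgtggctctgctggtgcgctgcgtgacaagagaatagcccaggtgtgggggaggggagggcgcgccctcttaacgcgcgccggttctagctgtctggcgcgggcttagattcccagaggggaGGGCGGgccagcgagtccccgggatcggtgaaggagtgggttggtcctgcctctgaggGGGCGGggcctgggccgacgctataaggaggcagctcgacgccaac
Cdkn1b, chr6:134920151-134920400, plus strand: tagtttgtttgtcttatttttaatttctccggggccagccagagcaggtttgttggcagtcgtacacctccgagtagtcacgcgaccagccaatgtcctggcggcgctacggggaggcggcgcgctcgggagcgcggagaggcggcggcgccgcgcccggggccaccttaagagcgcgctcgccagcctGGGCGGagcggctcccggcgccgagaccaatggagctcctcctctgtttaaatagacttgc
Cdkn2a, upstream start (p19Arf), chr4:89294654-89294869, minus strand: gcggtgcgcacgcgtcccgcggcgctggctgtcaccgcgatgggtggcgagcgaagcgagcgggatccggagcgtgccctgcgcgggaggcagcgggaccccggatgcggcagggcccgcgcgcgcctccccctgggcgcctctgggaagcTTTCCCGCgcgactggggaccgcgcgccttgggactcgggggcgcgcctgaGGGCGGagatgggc
Cdkn2a, downstream start (p16Ink4a), chr4:89282193-89282442, minus strand: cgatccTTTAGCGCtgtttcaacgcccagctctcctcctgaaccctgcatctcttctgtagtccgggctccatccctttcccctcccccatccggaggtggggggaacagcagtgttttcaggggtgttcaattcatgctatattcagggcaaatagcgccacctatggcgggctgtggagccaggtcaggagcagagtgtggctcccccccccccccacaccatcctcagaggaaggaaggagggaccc

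Over 250 bases before the start, the distal Cdkn1a window held 2 matches to the p53 decamer, at -73 and -51 from the start, and such a match occurs in 7.13% of the 32851 promoter windows of this length. TTTNNCGC occurred once in each Cdkn2a window, at -99 and -244, and in 4.28% of all windows. GGGCGG was found in 32.7% of all windows, and here in the proximal Cdkn1a window (2 matches), the Cdkn1b window (1) and the upstream Cdkn2a window (2, of which 1 lies in exon bases not printed). The core of the hypoxia response element, ACGTG or GCGTG, had 1 match in the proximal Cdkn1a window, 1 in the Cdkn1b window, 4 in the upstream Cdkn2a window and 0 in the distal Cdkn1a and downstream Cdkn2a windows, against 38.6% of all windows with any match. A match describes the letters only.

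Of the 10 members, 9 passed edgeR's filter on low counts and were tested. At an adjusted p under 0.05 (edgeR's quasi-likelihood test, Benjamini-Hochberg adjustment over all 15881 genes tested), 3 members were higher in Confine (Cdkn1a, Cdkn1b and Cdkn2a), 1 was lower (Ccnd1) and 5 did not pass. Among all genes tested, 23.0% passed, 12.8% higher and 10.2% lower. With the fold cutoff of the study added (absolute log2 fold change above 1.5), 1 member was called, Cdkn1a, against 8.00% of all genes (4.89% higher and 3.11% lower). The median log2 fold change of the 9 members was 0.21, and that of all genes tested was -0.0021.

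Cdkn1a encodes p21, the CIP/KIP inhibitor that halts cells in G1 after stress, and lies at chr17:29090976-29100727 (GRCm38, plus strand). It had 315, 337 and 224 normalized CPM in the Ctrl libraries and 1921 and 2014 normalized CPM in the Confine libraries. Every Confine library was thus above every Ctrl library, and the gap between the groups was far wider than the spread within either. The means were 292 ± 59.8 CPM (SD, n = 3) in Ctrl and 1967 ± 66.3 CPM (SD, n = 2) in Confine. Cdkn1a rose by 2.75 on the log2 scale (standard error 0.20, 95% interval 2.34 to 3.17, edgeR adjusted p = 1.26e-08), a 6.74-fold increase. An exact two-sided permutation test on log2(CPM + 1) gave p = 0.1, the smallest that 3 libraries against 2 allow. For the other members called, the same permutation test gave p = 0.1 for Cdkn2a and p = 0.2 for Cdkn1b and for Ccnd1. By size of the rise, Cdkn1a ranked 248 among the 15881 genes tested. In RPKM, the normalized CPM per kilobase of exon, it moved from rank 755 to rank 110 of 15871 genes with a known length. The length was that of the merged exons of all annotated transcripts of a gene. RPKM may therefore be too low for genes with long exons that these cells do not use, and comparisons between genes are approximate.

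Cdkn1b encodes p27, the CIP/KIP inhibitor linked to quiescence and contact inhibition, and lies at chr6:134920401-134925513 (plus strand). It had 148, 309 and 207 normalized CPM in Ctrl and 368 and 367 in Confine. The 2 Confine libraries were almost equal and lay above all Ctrl libraries, but Ctrl replicate 2 came close to them. Cdkn1b rose by 0.73 on the log2 scale (standard error 0.23, 95% interval 0.24 to 1.22, edgeR adjusted p = 0.0291), or 1.66-fold. This call was lost without Ctrl replicate 1 (log2 fold change 0.51, adjusted p = 0.138), without Ctrl replicate 3 (0.67, 0.0552), and without Confine replicate 2 (0.73, 0.133) or Confine replicate 3 (0.73, 0.144). It was also lost when library size alone replaced TMM normalization (0.52, adjusted p = 0.113). Cdkn1c, which encodes p57 and is expressed from the maternal allele, had 0 counts in all 5 libraries. A floor of 3 counts corresponds to 0.101 to 0.128 normalized CPM, so Cdkn1c may have been present below that level, and this bound covers counting error only.

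**Figure D1:**
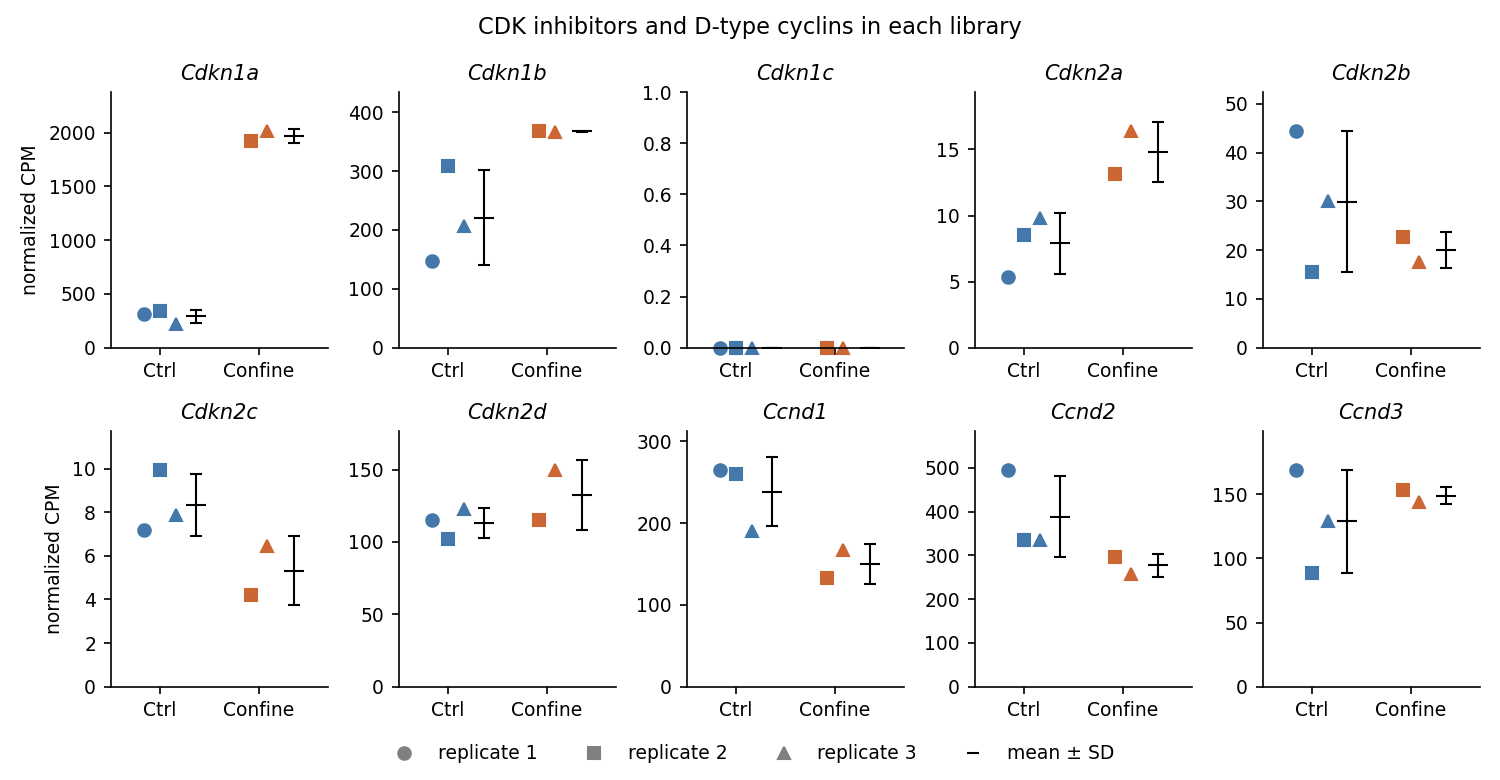
Normalized CPM (vertical axis, from 0, with a separate scale for each gene) of the 10 members in the 3 Ctrl libraries (blue) and 2 Confine libraries (orange), with the mean ± SD in black and the marker shape giving the replicate number. Cdkn1a rises from 292 to 1967 CPM on average, Cdkn1b and Cdkn2a are above all Ctrl libraries in both Confine libraries, Cdkn2c, Ccnd1 and Ccnd2 are below them, Cdkn1c is at 0, and the other members overlap.

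The INK4 genes did not move together. Cdkn2a, which encodes both p16Ink4a and p19Arf from different first exons and is the member that also acts on p53 through p19Arf, lies at chr4:89274471-89294653 (minus strand). Gene counts do not separate its products. It had 5.35, 8.54 and 9.82 normalized CPM in Ctrl and 13.2 and 16.4 in Confine, and both Confine values exceeded the Ctrl values, at a low level. On the log2 scale Cdkn2a rose by 0.91 (standard error 0.25, 95% interval 0.38 to 1.43, edgeR adjusted p = 0.0124), or 1.87-fold. The call was lost without Ctrl replicate 1 (log2 fold change 0.68, adjusted p = 0.0757) and without Confine replicate 3 (0.74, 0.174).

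Its neighbour Cdkn2b, which encodes the TGF-beta-responsive inhibitor p15, lies at chr4:89306299-89311039 on the same strand and did not pass the test. It had 44.4, 15.5 and 30.0 normalized CPM in Ctrl and 22.7 and 17.5 in Confine. The Ctrl libraries spread widely and enclosed both Confine values. The log2 fold change was -0.58 (95% interval -1.21 to 0.055, edgeR adjusted p = 0.187). Without Ctrl replicate 2, the lowest Ctrl library, it was -0.89 (adjusted p = 0.00625), and without Ctrl replicate 1, the highest, -0.18 (0.723). The ratio of Cdkn2a to Cdkn2b reads per kilobase within a library was 0.143, 0.654 and 0.389 in Ctrl and 0.688 and 1.11 in Confine. The ratio was highest in Confine, with Ctrl replicate 2 just under the lower Confine value.

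Cdkn2c, which encodes p18 and lies at chr4:109660876-109667189 (minus strand), had 7.19, 9.94 and 7.87 normalized CPM in Ctrl and 4.19 and 6.43 in Confine. Both Confine libraries were below all Ctrl libraries, but the adjusted p did not pass (log2 fold change -0.65, standard error 0.26, edgeR adjusted p = 0.0844). With library size alone it did (log2 fold change -0.86, adjusted p = 0.0233). Cdkn2d, which encodes p19Ink4d and lies at chr9:21288410-21291407 (minus strand), was the most abundant INK4 transcript. It had 115, 102 and 123 normalized CPM in Ctrl and 115 and 149.8 in Confine, groups that overlap, with a log2 fold change of 0.23 (95% interval -0.16 to 0.62, edgeR adjusted p = 0.422).

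Among the D-type cyclins, Ccnd1 fell. It encodes cyclin D1, the D cyclin most tied to growth factor and adhesion signals in fibroblasts, and lies at chr7:144929931-144939925 (minus strand). It had 265, 261 and 189.9 normalized CPM in Ctrl and 133 and 167 in Confine. Both Confine libraries lay below all Ctrl libraries, although Ctrl replicate 3 was closer to them than to the other Ctrl libraries. On the log2 scale the difference was -0.67 (standard error 0.20, 95% interval -1.09 to -0.25, edgeR adjusted p = 0.0202), or 1.59-fold lower. The call was lost without Ctrl replicate 1 (log2 fold change -0.59, adjusted p = 0.0740) and without Confine replicate 2 (-0.51, 0.226). In bulk libraries, fewer cells with the transcript and less transcript per cell cannot be told apart. Ccnd1 shares 1100 exon bases with the gene listed as LTO1 on the other strand. The libraries averaged 1315 LTO1 counts and 5431 Ccnd1 counts.

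Ccnd2, which encodes cyclin D2 and lies at chr6:127125162-127152193 (minus strand), had 495, 335 and 334 normalized CPM in Ctrl and 296 and 258 in Confine. The groups did not overlap, but the adjusted p did not pass (log2 fold change -0.49, standard error 0.20, 95% interval -0.91 to -0.057, edgeR adjusted p = 0.0981). It passed without Ctrl replicate 2 (log2 fold change -0.58, adjusted p = 0.0412) and with library size alone (-0.69, 0.0144). Ccnd3, which encodes cyclin D3 and lies at chr17:47505051-47599691 (plus strand), had 169, 88.8 and 129 normalized CPM in Ctrl and 154 and 144 in Confine. Its Confine libraries lay inside the Ctrl range, with a log2 fold change of 0.21 (95% interval -0.26 to 0.67, edgeR adjusted p = 0.559). Over the 9 members tested, 3 were separate and higher in Confine, 3 separate and lower, and 3 overlapped. Of all genes tested, 49.5% were separate, 25.9% higher and 23.6% lower.

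Per length of exon, the order of the members in Ctrl was Cdkn1a with 82.2 ± 16.8 RPKM (SD, n = 3), Cdkn2d with 71.9 ± 6.55, Ccnd1 with 50.6 ± 8.94, Cdkn1b with 48.6 ± 17.8, Ccnd2 with 41.2 ± 9.83, Cdkn2b with 21.6 ± 10.4, Ccnd3 with 14.7 ± 4.56, Cdkn2a with 6.75 ± 1.96 and Cdkn2c with 3.10 ± 0.534 RPKM. Neighbours in this order overlapped between libraries for Cdkn1a and Cdkn2d, for Ccnd1, Cdkn1b and Ccnd2, and for Cdkn2b and Ccnd3. In Confine, Cdkn1a stood alone at 554 ± 18.7 RPKM (SD, n = 2). It was followed by Cdkn2d with 84.2 ± 15.5 and Cdkn1b with 80.7 ± 0.196 RPKM, whose libraries overlapped. Ccnd1 with 31.8 ± 5.14 and Ccnd2 with 29.5 ± 2.86 RPKM overlapped as well. Ccnd3 had 16.97 ± 0.758, Cdkn2b 14.5 ± 2.66, Cdkn2a 12.6 ± 1.94 and Cdkn2c 1.98 ± 0.590 RPKM, and of these only Cdkn2b and Cdkn2a overlapped.

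The balance between inhibitor and cyclin transcripts was read as ratios within a library, which the scaling of libraries cannot move. Cdkn1a amounted to 0.693, 0.937 and 0.696 times the summed D cyclins (reads per kilobase) in Ctrl and to 7.01 and 7.15 times in Confine. By this measure, Ctrl cells held less Cdkn1a than D cyclin transcript in every library, and Confine cells held several times more in both. The mean ratio changed 9.13-fold. The size of each ratio depends on the merged exon lengths used. The 4 INK4 genes together amounted to 0.876, 0.861 and 1.22 times the summed D cyclins in Ctrl and to 1.33 and 1.57 times in Confine. That ratio was also higher in both Confine libraries, but by 1.47-fold. Relative to their kinase partners Cdk4 and Cdk6, the summed D cyclins were at 0.307, 0.287 and 0.207 in Ctrl and 0.228 and 0.250 in Confine, with overlapping groups.

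Within the inhibitors, Cdkn1a made up 38.0%, 38.0% and 28.8% of the summed reads per kilobase in Ctrl and 74.7% and 73.5% in Confine. The Cdkn1b share was 20.6% ± 6.62 (SD, n = 3) in Ctrl and 10.8% ± 0.515 (SD, n = 2) in Confine, although its own level was higher. Within the D cyclins, Ccnd1 made up 43.9%, 54.7% and 44.5% in Ctrl and 36.5% and 44.7% in Confine, so the groups overlapped. Ccnd3 made up 15.0%, 10.01% and 16.3% in Ctrl and 22.7% and 20.7% in Confine, higher in both Confine libraries, and Ccnd2 stayed between 34.6% and 41.1% in all 5 libraries. These shares are descriptions and were not tested.

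**Figure D2:**
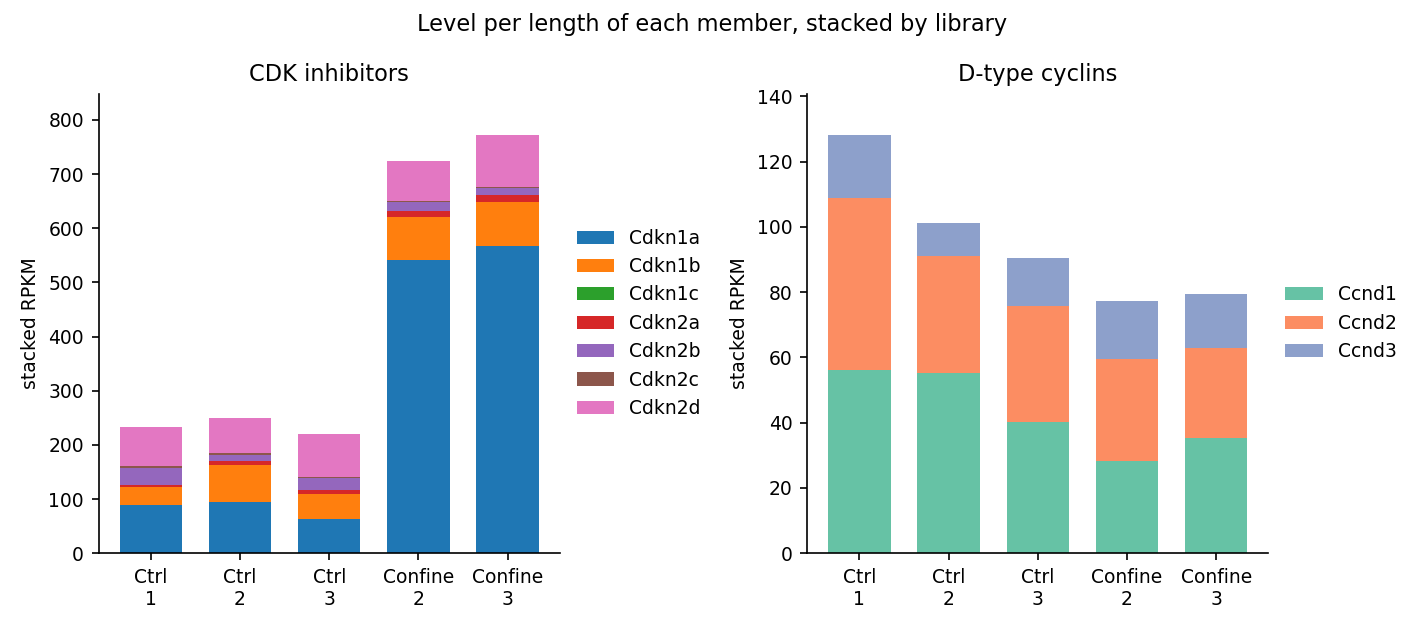
RPKM (vertical axis, from 0) of the 7 CDK inhibitors (left) and the 3 D-type cyclins (right), stacked for each of the 5 libraries, with different vertical scales. The inhibitor sum is 234 ± 15.2 RPKM in Ctrl and 748 ± 33.8 in Confine (mean ± SD), mostly through Cdkn1a, and the D cyclin sum is 107 ± 19.3 in Ctrl and 78.2 ± 1.52 in Confine.

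Cdkn1a was the only member to pass in all 14 alternative fits, with log2 fold changes from 2.54 to 2.89 and adjusted p from 4.91e-45 to 5.30e-06. The range was 0.51 to 1.07 for Cdkn1b, which passed in 8 of 14 fits, 0.68 to 1.07 for Cdkn2a, which passed in 11, and -0.88 to -0.51 for Ccnd1, which passed in 11. The 14 fits include that with the identical columns as separate samples, in which these 4 genes passed. Every tested member except Ccnd3 kept its direction in every fit, called or not. The fits share libraries and are not independent of each other. Library size alone moved the median log2 fold change of all genes tested by -0.21, and the Cdkn1b value moved by about as much.

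**Figure D3:**
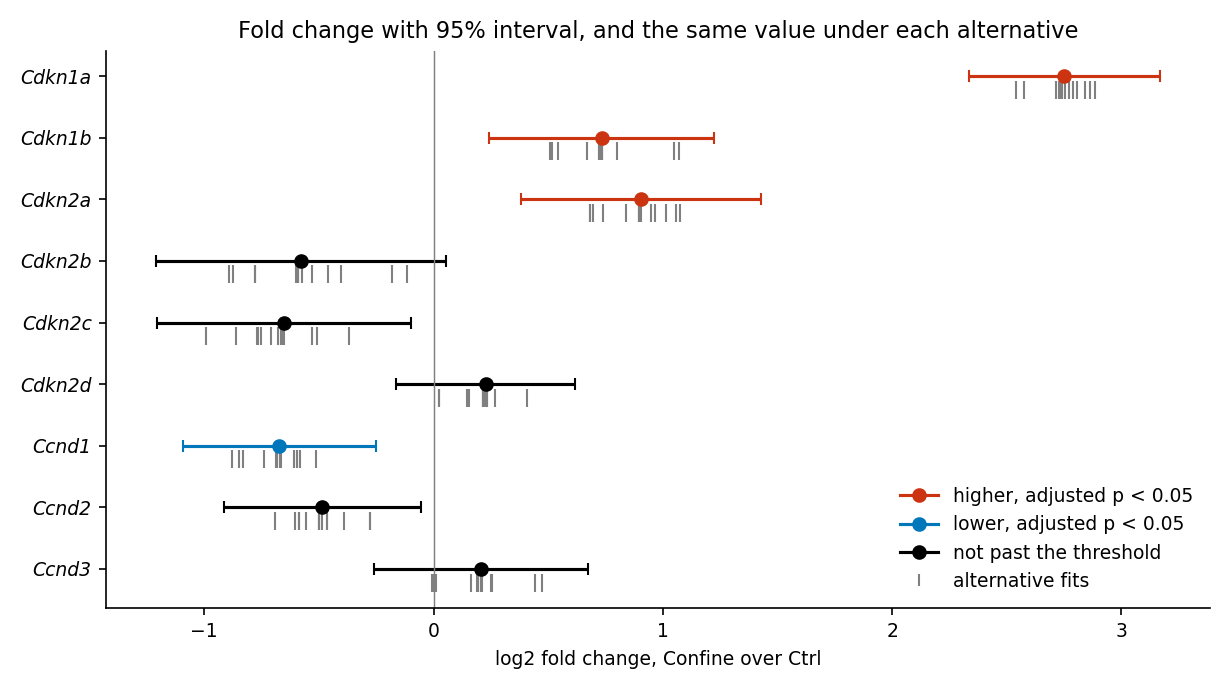
Log2 fold change of Confine over Ctrl (horizontal axis) for the 9 members tested, as points with 95% intervals from edgeR, with grey ticks for the values under the 14 alternative fits. Cdkn1a lies at 2.75 with all its ticks above 2.5, Cdkn1b and Cdkn2a lie above 0, Ccnd1 lies below 0, and the ticks of Ccnd3 reach 0.

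Where 23.0% of all genes tested passed, 1 of 7 genes for CDKs and the CDK-activating kinase did. It was Cdk1, the mitotic kinase, with a log2 fold change of -1.31 (edgeR adjusted p = 3.91e-05). Cdk4 had a log2 fold change of -0.42 (adjusted p = 0.108), Cdk6 of 0.47 (0.117) and Cdk2 of -0.46 (0.106). Cdk4, at 1167 ± 149.6 CPM (SD, n = 3) in Ctrl and 871 ± 22.1 CPM (SD, n = 2) in Confine, and Cdk6, at 602 ± 40.6 CPM in Ctrl and 833 ± 305 CPM in Confine, were both abundant. Without Ctrl replicate 2, or with library size alone, 3 genes of this list passed, all lower, and without Confine replicate 3, 2 passed, 1 higher and 1 lower. Of the 3 pocket proteins, Rbl1 (p107) fell by 1.34 on the log2 scale (adjusted p = 0.00240), while Rb1 had 0.70 (0.0970) and Rbl2 -0.097 (0.778). Without Confine replicate 2, 0 of the 3 passed, and without Ctrl replicate 2, 2 passed, 1 higher and 1 lower.

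Tested genes that act in the G1/S transition and in mitosis were lower in Confine, and a link to the members was not tested. In bulk libraries, fewer cycling cells and less transcript per cell cannot be told apart. All 16 listed E2F target genes of the G1/S transition fell, with log2 fold changes from -2.04 to -0.83, where 10.2% of all genes fell. The smallest adjusted p values were those of the replicative helicase subunits Mcm4 (-1.91, 1.11e-06), Mcm5 (-2.04, 1.14e-06) and Mcm2 (-1.95, 2.11e-06). Of 8 tested cyclin E, A and B and CDC25 genes, 7 fell, led by Ccnb2 (-1.98, 5.95e-06), Ccnb1 (-1.76, 2.77e-05) and Cdc25c (-1.79, 3.59e-05), and Ccne1, which encodes cyclin E1, fell by 1.43 (1.82e-04). All 14 mitotic genes fell, with Plk1 (-1.96, 3.82e-06), Kif11 (-1.97, 6.26e-06) and Bub1b (-1.76, 8.63e-06) first. The median log2 fold changes of these lists were -1.56, -1.56 and -1.58, against -0.0021 over all genes tested. Leaving out any 1 library kept at least 15 of the 16 E2F targets, 12 of the 14 mitotic genes and 5 of the 8 cyclin and CDC25 genes past the threshold, all lower.

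Trp53, which encodes the p53 that activates Cdkn1a, had a log2 fold change of -0.46 (edgeR adjusted p = 0.0838) and did not pass. Over all genes tested, 12.8% passed higher and 10.2% lower. Of the 15 genes comprising Trp53 and targets of p53 other than Cdkn1a, 2 rose, Plk2 (log2 fold change 0.64, edgeR adjusted p = 0.0116) and Mdm2 (0.52, 0.0474), 2 fell, Ccng1 (-0.71, 0.0148) and Sesn1 (-0.87, 0.0163), and 11 did not pass. The libraries measure transcripts and not p53 protein, and whether p53 had a part in the Cdkn1a rise was not tested. The log2 fold changes of the 15 genes lay between -0.87 and 0.68, with a median of -0.045, and that of Cdkn1a was 2.75. With library size alone 0 of these genes rose and 4 fell, without Ctrl replicate 2 9 passed (5 higher), and without Confine replicate 2 or 3 0 and 1 passed. Of 14 FOXO and TGF-beta genes, 4 rose and 2 fell, beside 12.8% and 10.2% of all genes tested. Foxo3, a factor that activates Cdkn1b and Cdkn1a, rose from 82.5 ± 29.3 CPM (SD, n = 3) to 284 ± 31.0 CPM (SD, n = 2), a log2 fold change of 1.78 (1.23e-05). Klf4, a factor that activates Cdkn1a, rose by 1.40 (1.37e-05) and Tgfb1 by 1.60 (5.20e-04), while Tgfb3 fell by 1.25 (2.12e-04) and Tgfb2 by 0.58 (0.0492). Tgfb1 was the least abundant of these ligand genes, with means of 2.47 CPM in Ctrl and 7.50 CPM in Confine. Tgfb3 had 80.1 and 33.6 CPM, and Tgfb2 had 38.3 and 25.6 CPM.

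Of 12 genes for the stability of p27 and the D cyclins, 3 fell and 1 rose, beside 10.2% and 12.8% of all genes tested. The listed genes that fell encode the ubiquitin ligase subunit that marks p27 for destruction, its cofactor and a relative of that cofactor. They were Skp2 (log2 fold change -1.11, edgeR adjusted p = 9.61e-04), Cks1b (-0.90, 0.00111) and the related Cks2 (-0.63, 0.0235). Usp22, a deubiquitinase, rose by 0.59 (0.0198). Only 2 genes of this list, both lower, passed without Ctrl replicate 1 or without either Confine library, and with library size alone 0 rose and 4 fell. Of 15 tested regulators of the INK4 locus, 2 rose and 3 fell, beside 12.8% and 10.2% of all genes tested. Kdm6b, a demethylase that removes the Polycomb mark, rose from 165 ± 23.4 CPM (SD, n = 3) to 498 ± 76.1 CPM (SD, n = 2), a log2 fold change of 1.60 (4.72e-06), and Ets1, an activator of p16Ink4a, rose by 0.67 (0.0117). Id1, an inhibitor of the ETS factors, fell by 2.76 (2.21e-08), and the Polycomb genes Ezh2 (-0.76, 0.00435) and Bmi1 (-0.59, 0.0407) fell too. Without Confine replicate 2 or 3, 2 and 3 genes of this list passed.

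Of 15 tested genes for growth factor input to the D cyclins, 6 rose and 2 fell, beside 12.8% and 10.2% of all genes tested. The AP-1 genes went in different directions: Fosl1 (log2 fold change 2.79, edgeR adjusted p = 1.64e-07), Jun (1.83, 8.81e-06) and Fosl2 (1.26, 5.09e-05) rose, and Fos fell by 2.74 (8.10e-05). The Wnt pathway factor Tcf7l2 fell by 0.79 (0.00717). Myc had 0.29 (0.455) and did not pass. Without Confine replicate 3, 5 genes of this list passed, 4 higher and 1 lower. Over the whole of these lists and the secreted factors named in the closing section, 72 of 129 tested genes passed, 20 higher and 52 lower, against 23.0% of all genes tested. The 72 include all 16 E2F target genes, all 14 mitotic genes and 7 of the 8 cyclin and CDC25 genes, so the pooled count does not describe each list.

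**Figure D4:**
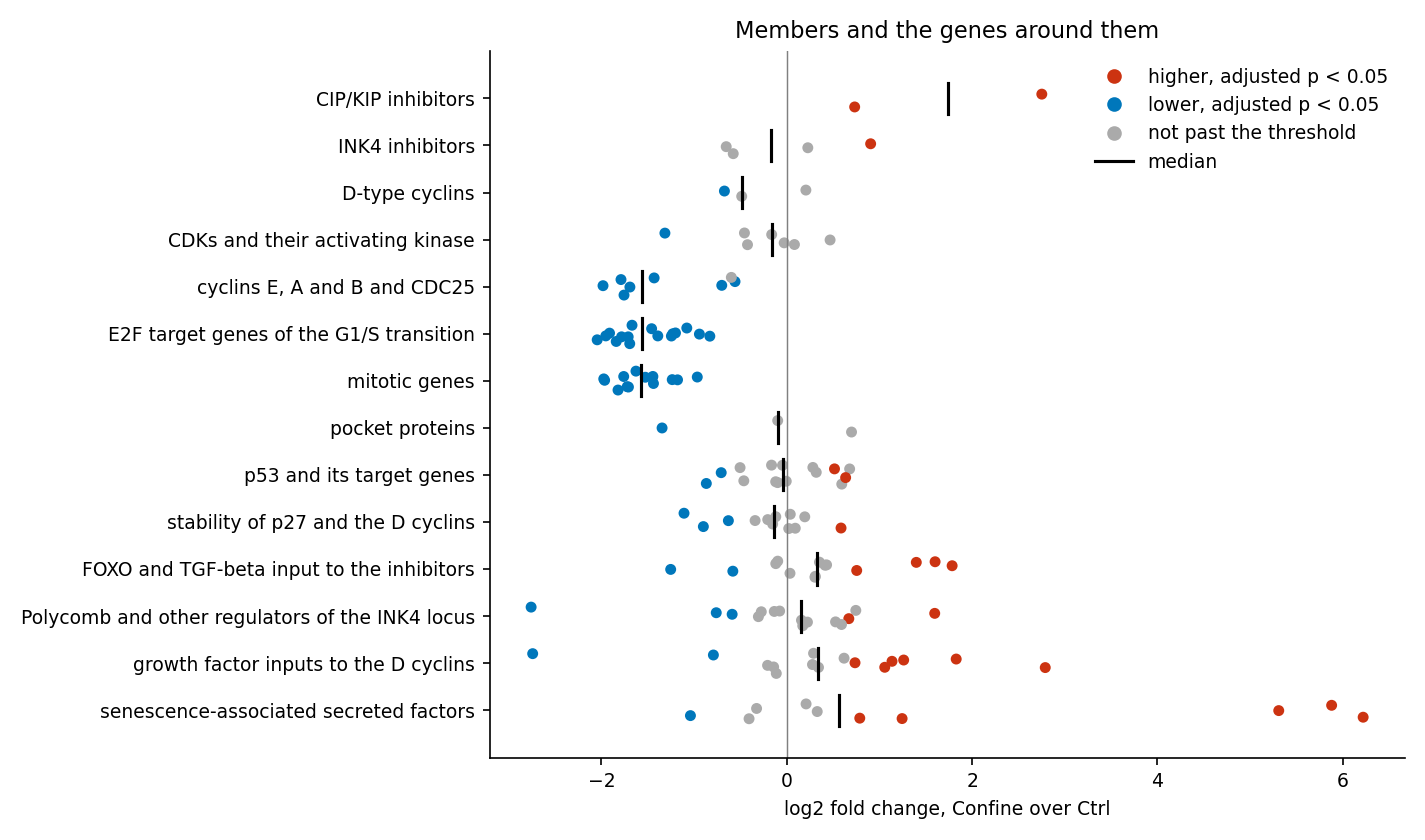
Log2 fold change of Confine over Ctrl (horizontal axis) of each tested gene in the member families and the surrounding lists (rows), red where higher and blue where lower at an adjusted p under 0.05, grey where not past it, with the list's median as a black line. The E2F target and mitotic genes all lie below -0.8 on the log2 scale, the p53 genes centre on 0, and Cdkn1a stands at the right of the member families.

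By the root mean square difference of centred log2 CPM over the 5 libraries, the genes most like Cdkn1a among 10456 candidates were Tenm4 (0.092), Slc2a1 (0.128), the glucose transporter GLUT1, and Apln (0.149), which encodes a secreted peptide. Their log2 fold changes were 2.69, 2.84 and 2.50. Those most like Cdkn2a were Gm2011 (0.119), Fbxo32 (0.120) and Hcfc1r1 (0.136), and those most like Ccnd1 were Pidd1 (0.040), Ccng1 (0.073) and Nup205 (0.075), of which Pidd1 and Ccng1 are known p53 targets. With 5 libraries in 2 groups, such likeness rests mainly on the size of the group difference.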

How the data were processed

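Gene-level read counts, not normalized, were deposited by the authors for 6 libraries of polyadenylated RNA, made with a dUTP second strand, and 0 columns were left unused. The submitters' processing notes name Trim Galore 0.6.10, HISAT2 2.1.0, SAMtools 1.5, featureCounts and mm10. The annotation and strand setting are not given in the sources used here, so genes overlapping on opposite strands may have exchanged counts: Ccnd3 shares 361 exon bases with Bysl (1945 counts on average against 3692). Transcripts of 94 other genes share at least 100 bases at 95% identity or more with Cdkn1a, and of 63 with Ccnd3 (blastn 2.17.0).

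Identifiers were named from GENCODE M21 (GRCm38), which held 55154 of 55335 without the version. The lengths of the merged exons of all transcripts of a gene were taken from it. Genes kept by filterByExpr (15881) were TMM-normalized and tested with edgeR 4.0.16 (quasi-likelihood, R 4.3.3, no replicate block, 3 residual degrees of freedom), checked on simulated data. There, 47 of 96 genes changed by 1 on the log2 scale and 85 of 95 changed by 2 were called, and 7.69% of calls were false. The simulation changed only 200 genes, where 23.0% of all genes passed in the data. It also left out the spread that the fit estimated for each gene. These rates may therefore not hold for the data. A member that did not pass may still have changed. Alternatives used DESeq2 1.42.0, limma-voom (limma 3.58.1), other normalizations and filters, a block, and leaving out each library. Members and lists were chosen with earlier results of these data known. All members were named, plus up to 3 genes per list and direction by smallest adjusted p and the 3 genes most like the leading member of each family, among genes with an average log2 CPM above 2. Ccne1, Cdk2, Cdk4, Cdk6, Rb1, Rbl2, Myc, Il6, Cxcl1, Ccl2, Trp53 and the marker genes other than Vim, Cd68, Csf1r and Lyz2 are outside this rule and were named after their values were seen.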

Additional observations from a re-analysis of the deposited data

How the results depend on the processing

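All alternatives were those planned. The number of genes past the threshold, 3654, was 1271 with the fold cutoff, and the members past it were 1 and the listed genes 30. The fits that each left out 1 library called from 2054 to 4426 genes, 1 to 6 members (Cdkn1a alone without Ctrl replicate 1) and 54 to 82 listed genes. Those without a Confine library assume that the lone library left in that group varies like the Ctrl libraries. Scaling by library size alone put 34.0% of called genes higher in Confine, against 55.7% with TMM, and 5 members passed, 2 higher and 3 lower. Without the filter on low counts, Cdkn2b passed (adjusted p = 0.0395), and with the identical columns as separate samples, Cdkn2c did (0.0232).

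With the replicate block, 1 member passed where the repeated library was number 2 and 6 where it was number 1, and 2528 and 4933 genes. Same-numbered differences correlated at -0.053 and 0.052 across genes, so the 2 pairs give little evidence that numbers pair the libraries. Ccnd3 ranged from -0.0063 to 0.44 without each library, the only member to change sign, and the cause was not tested.

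As shares of reads without division by exon length, the Ctrl and Confine means were 31.9% and 26.0% for Ccnd1, 51.1% and 48.1% for Ccnd2, 43.3% and 78.5% for Cdkn1a and 32.4% and 14.7% for Cdkn1b, and the Confine mean of Ccnd3 was 25.9%, since the transcripts differ in length. Of 126 member values under an alternative, 125 kept their direction and 105 their call. Cdkn2a and Cdkn2c rest on at most 413 counts in a library, which limits their precision.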

Other observations

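Secreted factors associated with senescence, a lasting arrest in which Cdkn1a and Cdkn2a are high, were also read. Of 12 listed, 10 were tested, 5 rose and 1 fell, beside 12.8% and 10.2% of all genes tested. The matrix metalloproteinase genes Mmp13 (log2 fold change 6.22, edgeR adjusted p = 2.47e-10), Mmp3 (5.88, 2.33e-11) and Mmp10 (5.31, 4.32e-10) rose most. Mmp3 had 47.9 ± 2.43 CPM (SD, n = 3) in Ctrl and 2818 ± 1277 CPM (SD, n = 2) in Confine, so the Confine libraries differed widely from each other. Of the tested cytokine and chemokine genes, Ccl7 fell by 1.04 (0.00114), and Il6 with 0.33 (0.525), Cxcl1 with 0.21 (0.537) and Ccl2 with -0.41 (0.268) did not pass. Without Confine replicate 3, 4 genes of the list were higher and 0 lower, so the Ccl7 call was lost, and without Confine replicate 2, 4 were higher and 2 lower.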
